A study of Mus musculus with 6 samples.

Results

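A set of 10 genes of phosphatidylcholine and phosphatidylethanolamine synthesis, Chka, Chkb, Etnk1, Pcyt1a, Pcyt2, Chpt1, Cept1, Ptdss1, Ptdss2 and Pisd, was followed in mouse lung fibroblasts with and without an active form of the lipogenic transcription factor Srebf1. The genes were chosen by symbol and pathway role, with earlier results of these data known. Each matched 1 of the 19865 gene symbols in the deposited tables. All 10 were among the 10194 genes with enough counts to be tested. RNA was measured in 3 control and 3 trSrebf1 libraries by 3'SAGE-seq, which counts short tags near the 3' end of polyA transcripts.

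Both groups were primary fibroblasts from lungs of Col1a2-GFP transgenic mice, which carry a reporter driven by the promoter of a collagen gene, and the strain given is C57BL/6. Cells received, by retrovirus, either the active form of Srebf1c (trSrebf1), switched on by doxycycline, or a control vector, and the vectors were marked by hLNGFR. They were transferred through the trachea into C57BL/6 mice on day 5 after bleomycin at 2 mg per kg, a drug that injures and scars the lung. Doxycycline was given on day 7 and the cells were recovered on day 10, as 10000 sorted cells per library that were live, GFP and hLNGFR positive and negative for CD45, CD31, EpCAM, CD146 and Ter119. The protocol does not describe a change to the cells' own Srebf1 gene, so trSrebf1 was compared on top of what these cells carry. The age of the mice is not given. Nothing in the labels ties a replicate to a mouse or culture of its own, so a p-value here speaks only for the spread among these 6 libraries, part of which may be technical. Srebf1 tags, which cannot be assigned to the transgene or the cells' own gene, gave 8.39, 5.16 and 7.78 CPM (counts scaled to a common library total) in control and 28.6, 31.2 and 24.7 CPM in trSrebf1 replicates 1 to 3, above control in all 3 (log2 fold change 1.98, SE 0.23, by edgeR).

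Phosphatidylcholine and phosphatidylethanolamine are the main phospholipids of animal membranes. In the Kennedy pathway a kinase phosphorylates choline or ethanolamine, a cytidyltransferase joins the product to CTP, and a phosphotransferase moves the head group onto diacylglycerol. Phosphatidylserine is made from either lipid by base exchange, and its decarboxylation in mitochondria gives phosphatidylethanolamine back. In the lung, phosphatidylcholine is also the chief lipid of surfactant, which is made by alveolar type II cells rather than by fibroblasts.

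Of the 10 genes, 3 rose in trSrebf1 libraries, namely Etnk1, Chka and Pcyt2, 0 fell and 7 were not called by edgeR's quasi-likelihood test at an adjusted p of 0.05. A share of 30.0% of these genes, chosen with earlier results of these data known, was called higher, against 17.2% of all tested genes. The background for calls in the other direction was 13.0%. At an unadjusted edgeR p under 0.05 there were likewise 3 higher and 0 lower, against 2153 higher and 1853 lower of all 10194 tested genes. DESeq2 and limma-voom each called 0 lower. The median log2 fold change over the 10 genes was 0.42, and that over all tested genes was -0.01. The 3 trSrebf1 values lay above the 3 control values for 4 genes, the called ones and Chkb, and below them for 0; over all tested genes these shares were 23.1% and 20.2%. Without control replicate 2 or control replicate 3 only Etnk1 was called, and without trSrebf1 replicate 3 the count was 2.

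**Figure D1:**
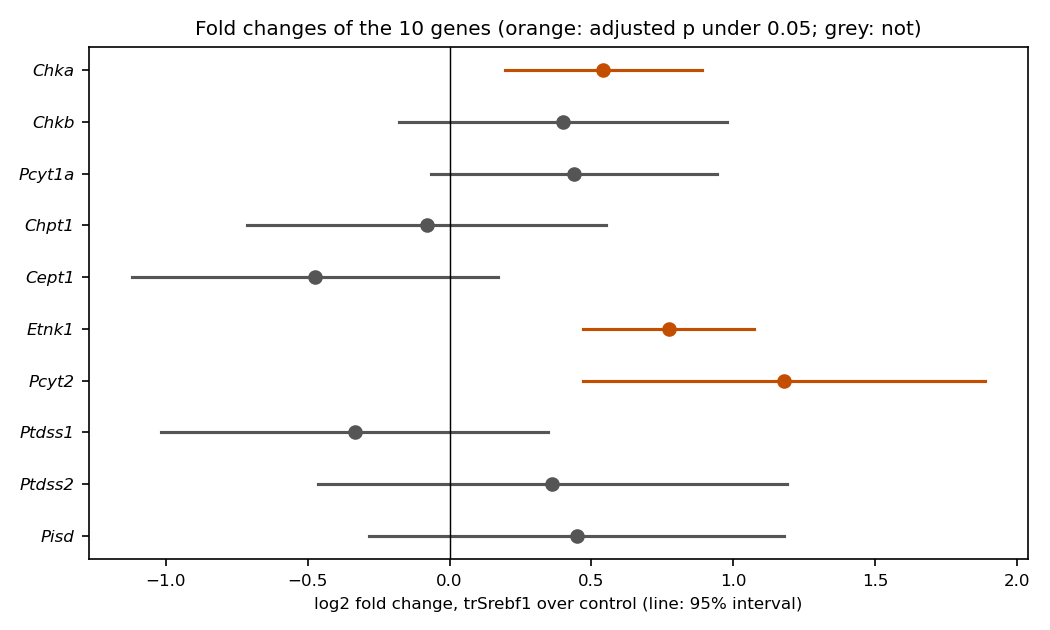
Log2 fold change of each of the 10 genes, trSrebf1 over control, with its 95% interval from the edgeR fit (3 libraries per group). Orange marks an adjusted p under 0.05. The intervals of Chka, Etnk1 and Pcyt2 lie above 0, and those of the other 7 genes include it.

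Library totals were 3675146 to 4688196 counts, and the 10 genes had 10 to 625 counts per library. A single gene, Ctsd, took 0.860% to 0.953% of control and 6.53% to 6.81% of trSrebf1 counts. Within each group, pairs of libraries differed by at least 4.52 times what counting noise gives, so none was treated as a copy of another. Control 1 differed most, by 7.98 times from control 2 and 8.13 times from control 3, against 4.64 between controls 2 and 3. It was the highest control library for 7 of the 10 genes. Marker genes were summed for the cell types that the sort could hold. The fibroblast markers gave 28620 to 33590 CPM in control and 20180 to 23090 in trSrebf1, with 5 of 6 lower. Type II epithelial markers, the cells that make surfactant, gave 11.3 to 19.3 and 10.3 to 25.9 CPM (7 of 8 had a row, the 3 tested did not pass the test, and Epcam averaged 0.0860 and 0.0761 CPM). Macrophage, endothelial and erythroid markers gave at most 2.06 CPM. A row was present for 3 of 6 macrophage, 4 of 5 endothelial and 4 of 5 erythroid markers. Ptprc, Adgre1, Marco, Emcn and Hba-a2 had none, so these sums leave out main markers. Pericyte markers gave 98.6 to 118 CPM in control and 255 to 296 in trSrebf1, with Cspg4 and Pdgfrb higher, Kcnj8 lower and Mcam, which encodes the CD146 of the gate, at 0.94 and 0.67 CPM. Their part in the results for the 10 genes was not tested. In RNA of bulk cells, fewer cells of a type and less RNA per cell cannot be told apart.

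The promoters of 3 of the genes are shown here. Chka and Etnk1 are genes that rose, and Pcyt1a was the only one of the 8 genes searched with a match to the core of a sterol regulatory element, the kind of site that Srebf1 proteins are known to bind. Each window runs from 250 bases before to 50 after a RefSeq start site (assembly GRCm38.p6), and is given 5' to 3' on the plus strand, on which all 3 genes lie. Windows were found for 8 of the 10 genes, the others being Pcyt2 and Ptdss1. The motifs searched on both strands were TCACNCCAC (sterol element core), CACGTG (E-box), CCAAT (NF-Y box) and GGGCGG (GC box), and capitals mark each match.
Pcyt1a, chr16:32430671-32430970: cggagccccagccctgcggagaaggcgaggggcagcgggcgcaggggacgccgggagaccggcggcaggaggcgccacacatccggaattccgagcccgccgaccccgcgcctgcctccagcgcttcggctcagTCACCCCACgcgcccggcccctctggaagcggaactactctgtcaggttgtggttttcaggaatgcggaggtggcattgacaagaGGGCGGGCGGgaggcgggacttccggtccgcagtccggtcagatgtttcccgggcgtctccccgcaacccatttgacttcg
Chka, chr19:3851523-3851822: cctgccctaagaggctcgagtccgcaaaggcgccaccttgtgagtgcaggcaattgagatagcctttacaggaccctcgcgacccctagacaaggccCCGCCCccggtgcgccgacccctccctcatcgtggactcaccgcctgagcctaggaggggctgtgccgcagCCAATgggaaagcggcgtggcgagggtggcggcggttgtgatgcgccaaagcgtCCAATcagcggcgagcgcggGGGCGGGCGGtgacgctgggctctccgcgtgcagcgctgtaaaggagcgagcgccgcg
Etnk1, chr6:143166980-143167279: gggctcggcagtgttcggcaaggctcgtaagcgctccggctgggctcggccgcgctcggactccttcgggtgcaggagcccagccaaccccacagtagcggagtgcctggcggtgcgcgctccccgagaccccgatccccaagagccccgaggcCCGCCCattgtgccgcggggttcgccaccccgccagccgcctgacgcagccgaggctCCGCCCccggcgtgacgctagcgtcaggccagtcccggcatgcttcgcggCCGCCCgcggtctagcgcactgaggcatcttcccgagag

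The Pcyt1a window holds the sterol element core, as TCACCCCAC, 116 bases upstream of the start, and 2 overlapping GC boxes at 31 and 27 bases upstream. A second Pcyt1a start site has a window that overlaps this one and holds the same element, 215 bases upstream of that start. The window of the third Pcyt1a start site (chr16:32430980-32431279) holds no match to the sterol element core or the GC box. The Chka window holds CCAAT boxes 82 and 28 bases upstream and GC boxes at 153, 8 and 4 bases upstream, the last pair overlapping. The Etnk1 window holds GC boxes 96 and 39 bases upstream and 12 downstream of the start, and no match to the other motifs. Of the 13 windows of the 8 genes, which overlap in part, 2 held the sterol element core, 0 the E-box, 5 the CCAAT box and 10 the GC box. Among 32851 promoter windows of the same length, the shares were 1.24%, 7.15%, 37.4% and 35.7%. A match is a description of the letters only.

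The kinases open the Kennedy pathway. Etnk1 (ethanolamine kinase 1; chromosome 6, 143167221 to 143232307, plus strand, GRCm38) gave 63.2, 79.7 and 68.6 CPM in control replicates 1 to 3 and 115, 104 and 143 CPM in trSrebf1 replicates 1 to 3. Every trSrebf1 library was above every control library. Etnk1 rose from 70.5 ± 8.43 to 120 ± 20.1 CPM (mean ± SD, 3 libraries per group). The log2 fold change was 0.77 (SE 0.14, 95% interval 0.47 to 1.07, edgeR adjusted p = 0.000424). It ranked 1114 of 10194 genes by p.

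Chka (choline kinase alpha, which phosphorylates choline; chromosome 19, 3851773 to 3894369, plus strand) gave 44.3, 32.8 and 30.7 CPM in control and 49.0, 54.3 and 53.4 CPM in trSrebf1. The groups did not overlap, though control 1 stood close to trSrebf1 1. Chka rose from 35.9 ± 7.35 to 52.3 ± 2.83 CPM, a log2 fold change of 0.54 (SE 0.16, edgeR adjusted p = 0.0178). Chka did not pass the threshold when control replicate 2 (adjusted p = 0.0800) or control replicate 3 (0.116) was left out. Chkb (choline kinase beta; chromosome 15, 89426360 to 89429908, minus strand) gave 6.82, 5.42 and 6.61 CPM in control and 9.03, 7.36 and 8.45 CPM in trSrebf1. The groups were apart, but its log2 fold change of 0.40 (95% interval -0.18 to 0.98) did not pass the test (edgeR adjusted p = 0.308).

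**Figure D2:**
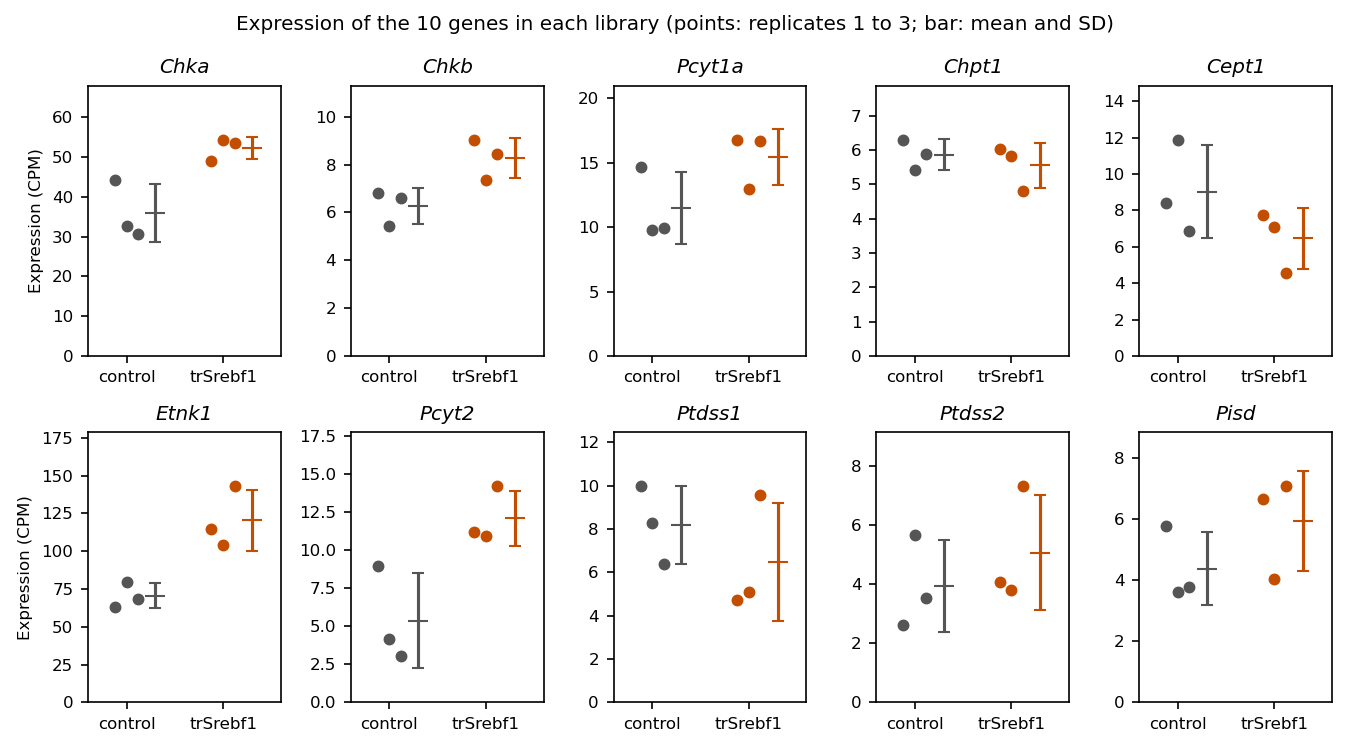
Tag level (CPM) of each of the 10 genes in the 3 control and 3 trSrebf1 libraries, 1 panel per gene with its own axis from 0; points are replicates 1 to 3 and bars the mean and SD. Etnk1, Chka, Pcyt2 and Chkb have no trSrebf1 point at or below a control point, and the other 6 panels overlap.

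The cytidyltransferases make CDP-choline and CDP-ethanolamine. Pcyt2 (ethanolamine-phosphate cytidyltransferase; chromosome 11, 120610087 to 120617936, minus strand) gave 8.92, 4.13 and 3.07 CPM in control and 11.2, 10.9 and 14.2 CPM in trSrebf1. Control 1 was the highest control and the nearest to the trSrebf1 libraries, and the groups did not overlap. Pcyt2 rose from 5.37 ± 3.12 to 12.1 ± 1.80 CPM, a log2 fold change of 1.18 (SE 0.34, 95% interval 0.47 to 1.89, edgeR adjusted p = 0.0121), on 13 to 62 counts per library. Pcyt2 did not pass when control replicate 2 (adjusted p = 0.0624), control replicate 3 (0.0715) or trSrebf1 replicate 3 (0.0511) was left out.

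Pcyt1a (choline-phosphate cytidyltransferase alpha, the rate-limiting enzyme of the choline branch; chromosome 16, 32430921 to 32475070, plus strand) gave 14.7, 9.80 and 9.91 CPM in control and 16.8, 12.9 and 16.7 CPM in trSrebf1. Control 1 lay above trSrebf1 2, so the groups overlapped. Its log2 fold change was 0.44 (SE 0.24, 95% interval -0.07 to 0.94, edgeR adjusted p = 0.190). Pcyt1a, with the sterol element core in 2 of its 3 promoter windows, was not called.

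The phosphotransferases among the 10 genes, Cept1 and Chpt1, which act at the last step of the 2 branches, were not called. Ept1, the ethanolamine phosphotransferase, is not among the 10 and was called lower, as given below. Cept1 (which makes both lipids; chromosome 3, 106502260 to 106547802, minus strand) gave 8.39, 11.9 and 6.84 CPM in control and 7.74, 7.11 and 4.57 CPM in trSrebf1. Its log2 fold change was -0.47 (95% interval -1.12 to 0.17, edgeR adjusted p = 0.274). Chpt1 (cholinephosphotransferase 1; chromosome 10, 88452745 to 88504073, minus strand) gave 6.29, 5.42 and 5.90 CPM in control and 6.02, 5.84 and 4.80 CPM in trSrebf1, the log2 fold change nearest 0 of the 10 genes, at -0.08 (interval -0.71 to 0.55, adjusted p = 0.875). The groups overlapped for both genes.

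Of the enzymes that make and use phosphatidylserine, none was called. Ptdss1 (phosphatidylserine synthase 1, which uses phosphatidylcholine; chromosome 13, 66932830 to 66998401, plus strand) gave 9.96, 8.26 and 6.37 CPM in control and 4.73, 5.08 and 9.59 CPM in trSrebf1, with trSrebf1 3 within the control range. Its log2 fold change was -0.33 (95% interval -1.02 to 0.35, edgeR adjusted p = 0.488). Ptdss2 (phosphatidylserine synthase 2, which uses phosphatidylethanolamine; chromosome 7, 141122382 to 141157606, plus strand) gave 2.62, 5.68 and 3.54 CPM in control and 4.09, 3.81 and 7.31 CPM in trSrebf1. The groups overlapped (log2 fold change 0.36, interval -0.46 to 1.19, adjusted p = 0.539).

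Pisd (phosphatidylserine decarboxylase of the mitochondrial inner membrane; chromosome 5, 32736301 to 32785646, minus strand) gave 5.77, 3.61 and 3.77 CPM in control and 6.67, 4.06 and 7.08 CPM in trSrebf1 (log2 fold change 0.45, 95% interval -0.29 to 1.18, edgeR adjusted p = 0.373). Its row is uncertain: the last 500 bases of a Pisd transcript match Pisd-ps1 on the same strand at 95% identity or more over 500 bases, and Pisd-ps1 had far more tags. Pisd-ps1, a pseudogene row, gave 35.7, 47.5 and 61.6 CPM in control and 27.7, 34.3 and 26.5 CPM in trSrebf1 and fell (log2 fold change -0.71, SE 0.19, edgeR adjusted p = 0.00888), with no overlap of the groups. Pisd-ps3 fell too (log2 fold change -0.60, SE 0.19, edgeR adjusted p = 0.0219), from 51.7 ± 12.7 to 34.2 ± 4.92 CPM with overlapping groups, but showed no such match to the end of Pisd. With the pseudogene rows added to Pisd, a sum chosen after seeing the data, the log2 fold change was -0.58 (edgeR adjusted p = 0.00760). Pisd averaged 4.39 CPM in control, against 48.2 for Pisd-ps1 and 51.7 for Pisd-ps3, so this sum follows the pseudogene rows. It cannot show the direction of Pisd itself.

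**Figure D3:**
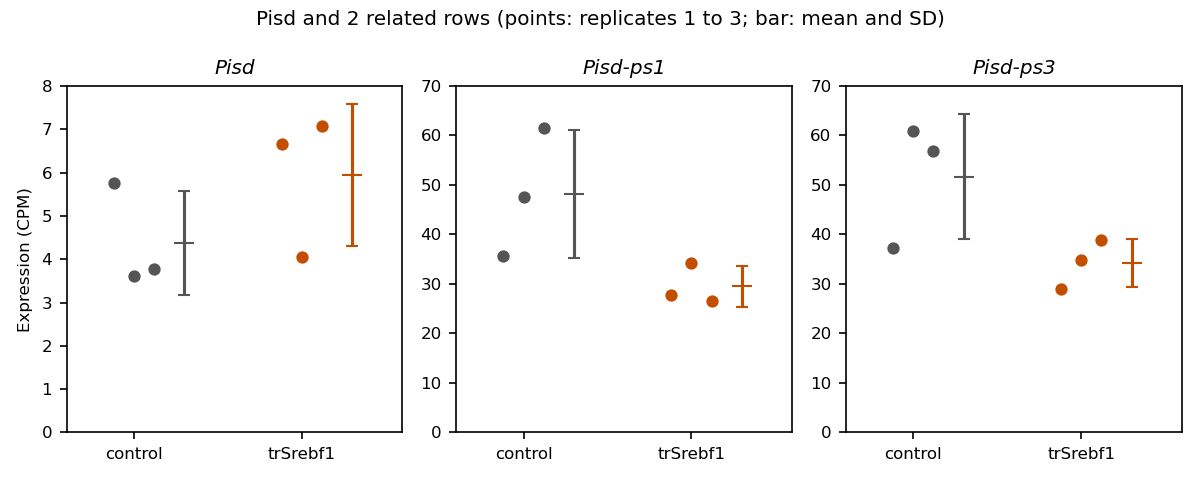
Tag level (CPM) of Pisd, Pisd-ps1 and Pisd-ps3 in the 3 control and 3 trSrebf1 libraries (points: replicates 1 to 3; bars: mean and SD; the Pisd axis is shorter). Pisd lies between 3.61 and 7.08 CPM, and both pseudogene rows are lower on average in trSrebf1 libraries.

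Other gene models also touch these rows, and the use of strand in the counting is not given, so reads of opposite genes cannot be told apart. The last 500 bases of Cept1 match Dennd2d on the opposite strand, a row with 0.597 CPM on average in control libraries and 0.0846 CPM in trSrebf1 libraries. Those of Chpt1 match Sycp3 on the opposite strand over 420 bases, a row at 0 and 0.152 CPM, and hold repeat-like matches to many genes. Those of Pcyt1a match Slc51a on the opposite strand, and those of Chkb match Gm44502 on the same strand over 382 bases. A row named ChkbCpt1b averaged 1.77 CPM in control and 2.56 CPM in trSrebf1 and was not tested. With this row added to Chkb, in a fit chosen after seeing the data, the log2 fold change of Chkb was 0.43 (edgeR adjusted p = 0.217). Ptdss1 shares 229 exonic bases with the opposite Mterf3, at 2.25 and 1.43 CPM, and Etnk1 shares 201 with 1700126G02Rik. Chka shares 165 exonic bases with the opposite AC133523.2 and 74 with the opposite Gm16066, and Chkb shares 320 with the opposite C730034F03Rik. No lookalike end was found for Chka, Etnk1, Ptdss1, Pcyt2 and Ptdss2, and Pcyt2 and Ptdss2 also shared no exonic bases with another gene.

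Ratios within a library were taken for 4 pairs of genes with related roles. Pcyt2 to Pcyt1a sets the ethanolamine cytidyltransferase against a choline cytidyltransferase, not the whole of one arm against the other. Pcyt1b, the second choline isoform, is left out of this ratio and rose from 1.40 CPM in control to 10.1 CPM in trSrebf1 libraries. The log2 ratio of Pcyt2 to Pcyt1a, with 0.5 added to counts, was -0.71, -1.22 and -1.65 in control and -0.58, -0.24 and -0.23 in trSrebf1. It was higher in all 3 trSrebf1 libraries than in any control library, with a mean difference of 0.84. The exact permutation test gave p = 0.1, the smallest that 3 against 3 allows, and 0.2 adjusted over the 4 pairs compared, so this design cannot pass the threshold. The log2 ratio of Ptdss2 to Ptdss1 was -1.87, -0.53 and -0.83 in control and -0.21, -0.40 and -0.39 in trSrebf1, a difference of 0.75 with the same exact p of 0.1 (0.2 adjusted). That difference was 0.35 without control replicate 1, whose ratio was the lowest. The ratios of Chka to Chkb and of Cept1 to Chpt1 differed by 0.16 (exact permutation p = 0.5, adjusted 0.5) and -0.39 (p = 0.4, adjusted 0.5), with overlapping groups.

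**Figure D4:**
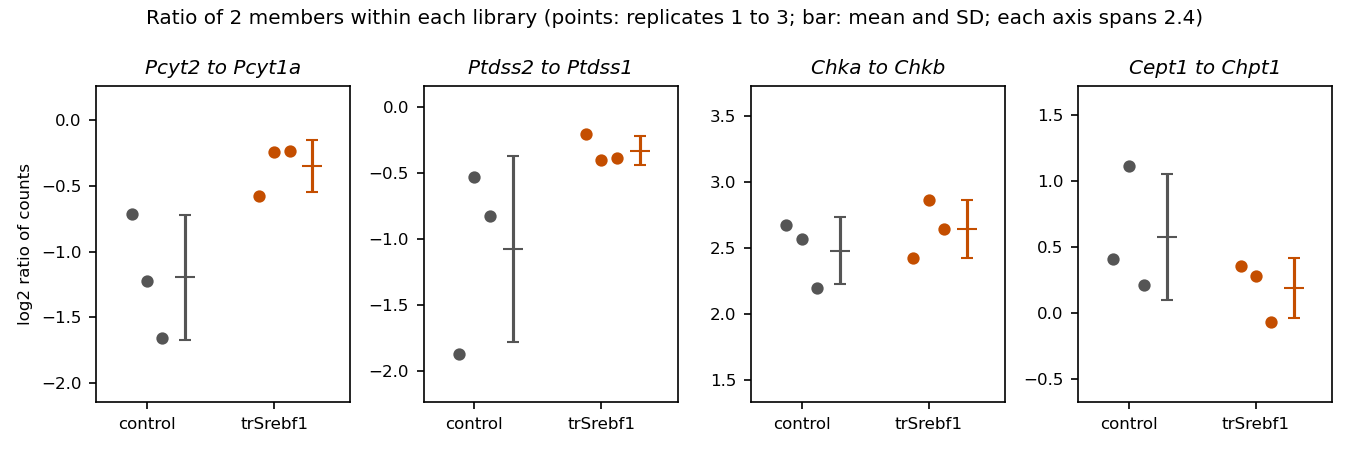
Log2 ratio of 4 pairs of genes with related roles within each library, for 3 control and 3 trSrebf1 libraries (0.5 added to each count; bars: mean and SD). The trSrebf1 points lie above all control points for Pcyt2 to Pcyt1a and for Ptdss2 to Ptdss1, and overlap them for the other pairs.

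Around these 10 genes, 8 lists of phospholipid genes, chosen with earlier results of these data known, held 70 genes. Of the 70, 64 had a row and 51 were tested. Of those, 16 rose (31.4%), 7 fell (13.7%) and 28 were not called, with a median log2 fold change of 0.14. Over all tested genes 17.2% were called higher and 13.0% lower, so the share called lower was near the background; the counts of the single lists below rest on 2 to 9 tested genes each. Larger changes were seen in the other enzymes and phosphatases of the same lipids, with 4 of 7 tested genes higher and 1 lower. Control counts of Pcyt1b, Lpin1 (10, 8 and 16) and Pemt (8, 6 and 11) were too low for the filter without the trSrebf1 libraries. The same held for Gpam and Gdpd1 below, and Agpat9 passed only through control. Such genes entered the test through the group where they are high, so the counts called are partly set by the filter. Pcyt1b, the second isoform of the choline cytidyltransferase, rose from 1.40 ± 0.68 to 10.1 ± 3.42 CPM (log2 fold change 2.81, SE 0.41, edgeR adjusted p = 4.1e-05). On the counts per library, its 5, 3 and 9 in control compare with 42, 29 and 61 in trSrebf1, all above control. Phospho1, a phosphatase of phosphocholine and phosphoethanolamine, rose from 11.2 ± 0.35 to 65.4 ± 3.59 CPM (log2 fold change 2.55, edgeR adjusted p = 2.22e-09), but its end also matches Zfp652 on the same strand and Abi3 on the opposite one. Lpin1, a phosphatidate phosphatase that yields diacylglycerol, rose from 2.82 ± 0.87 to 15.5 ± 3.94 CPM (log2 fold change 2.44, edgeR adjusted p = 1.32e-05), and Pemt, which methylates phosphatidylethanolamine to phosphatidylcholine, rose from 2.08 ± 0.52 to 6.55 ± 1.34 CPM (1.63, adjusted p = 0.00281).

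The ethanolamine phosphotransferase Ept1 (now named Selenoi) was called in the direction opposite to Etnk1 and Pcyt2, which act before it. It gave 58.2, 94.2 and 50.0 CPM in control and 28.8, 14.5 and 28.3 CPM in trSrebf1, with every trSrebf1 library below every control. Ept1 fell by 1.49 on the log2 scale (SE 0.31, edgeR adjusted p = 0.00512), and was named after its values were seen. The choline transporter Slc44a1 fell from 25.5 ± 4.47 to 16.6 ± 3.36 CPM (log2 fold change -0.63, edgeR adjusted p = 0.0298), 1 of 2 tested transport genes, with an overlapping gene, 1700060J05Rik, on the opposite strand. Slc44a1 did not pass when control replicate 2 (adjusted p = 0.159) or trSrebf1 replicate 1 (0.150) was left out.

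Genes that make phosphatidic acid, the precursor of diacylglycerol, were called higher in 4 of 8 tested cases and lower in 1. Gpam, the mitochondrial glycerol-phosphate acyltransferase, rose from 2.83 ± 0.47 to 15.0 ± 2.10 CPM (log2 fold change 2.39, edgeR adjusted p = 5.42e-06). Agpat4, a lysophosphatidate acyltransferase, rose from 236 ± 5.63 to 660 ± 23.7 CPM (1.49, adjusted p = 4.07e-09). Agpat3 and Agpat2 rose with log2 fold changes of 0.98 and 0.77. Agpat9 (now Gpat3, a glycerol-phosphate acyltransferase) fell from 6.40 ± 0.91 to 1.44 ± 0.59 CPM (-2.11, adjusted p = 0.000687), was named after its values were seen and shares its end with an opposite gene.

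Acyl remodelling of phospholipids moved in both directions, with 2 higher and 2 lower of 7 tested. Lpcat3 and Lpcat4, lysophosphatidylcholine acyltransferases, rose with log2 fold changes of 2.09 and 1.44 (the end of Lpcat3 is shared with Emg1 on the opposite strand), and Lpgat1 and Lclat1 fell by 0.86 and 0.47 on the log2 scale. Of 9 tested genes of breakdown and choline release, 2 rose and 1 fell. Gdpd1 and Gpcpd1, glycerophosphodiesterases, rose with log2 fold changes of 2.46 and 1.22, and the lysosomal phospholipase Pla2g15 fell by 0.96. The phosphatidylinositol, phosphatidylglycerol and cardiolipin branch had 1 higher of 7, Pgs1 at 0.97 (edgeR adjusted p = 0.0168), which did not pass in any fit that left out 1 of replicates 2 (adjusted p = 0.0675) and 3 (0.0682) of control or of replicates 1 (0.0599) and 2 (0.0670) of trSrebf1. Ether lipid genes had 0 of 4 called by edgeR, DESeq2 and limma-voom, and 1 higher at an unadjusted p of 0.05; Far1, a fatty acyl-CoA reductase, gave 79.1 CPM in control and 88.8 CPM in trSrebf1 (adjusted p = 0.343).

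Among 7 tested transfer genes 3 rose and 1 fell. Pitpna rose with a log2 fold change of 0.90, Pltp with 1.04 and Slmo2 (now Prelid3b) with 0.45, and Stard10 fell by 0.75 on the log2 scale. Slmo2 did not pass (edgeR) with control replicate 2 (adjusted p = 0.0599), control replicate 3 (0.0683) or trSrebf1 replicate 1 (0.0542) left out, nor did Stard10 with control replicate 2 (0.116), trSrebf1 replicate 1 (0.138) or trSrebf1 replicate 2 (0.111) left out. The end of Pltp is shared with Ctsa on the opposite strand.

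**Figure D5:**
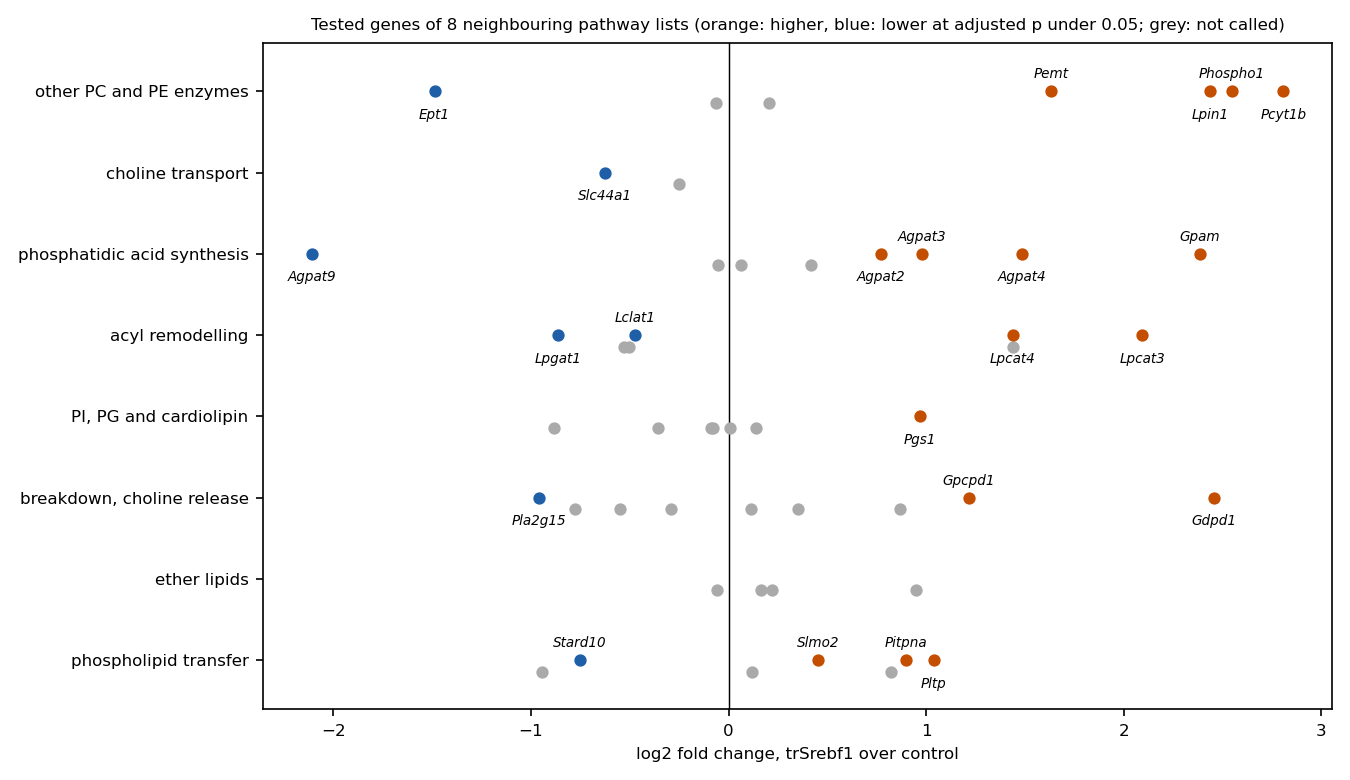
Log2 fold change, trSrebf1 over control, of the 51 tested genes of 8 phospholipid lists. Orange and blue mark genes higher and lower at an edgeR adjusted p under 0.05, and grey points, drawn slightly below, those not called. The largest rise is Pcyt1b at 2.81 and the largest fall Agpat9 at -2.11. Each of these genes passed the filter on low counts only through the group where it was high.

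The genes most like Etnk1 and Pcyt2 were ranked by the root mean square difference of log2 CPM over the 6 libraries, each gene centred on its control mean. For Etnk1 these were Map3k1 (0.0569), Hoxb7 (0.0647) and Sdha (0.0774) among 3779 genes with a mean of 20 CPM or more, whose median difference was 0.610. For Pcyt2 they included Pgrmc1 (0.284) and Esd (0.307), against a median of 1.04 over 3780 genes. The likeness is a description of 6 libraries that share the same 2 groups.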

How the data were processed

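Tag counts per gene symbol were deposited, 1 table per library, with 19865 symbols in each. The authors' counts were whole numbers and not normalized, per the file contents. Bowtie2 2.2.5 and the build mm10 are named, with no role, per the submitters' processing notes. How tags were counted, with which annotation and with or without strand, was not stated in any source used here. Tags near a shared 3' end may be assigned to either gene.

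The test was edgeR 4.0.16 under R 4.3.3 (TMM factors, filterByExpr with minimum count 10 and minimum total 15, robust glmQLFit and glmQLFTest, group as the only term). P-values were adjusted by the Benjamini-Hochberg method over 10194 genes, at a two-sided threshold of 0.05. The prior count for fold changes was 0.125, and the SE was the fold change over the square root of F. CPM used TMM-scaled library sizes. The steps were tested on simulated data. Within-library ratios used exact two-sided permutation tests. Motifs were searched in RefSeq promoters, and 3' ends were compared with GENCODE M21 transcripts by blastn 2.17.0 (at least 95% identity over 50 bases). Tags were amplified, and the use of molecular identifiers was not stated, so counts need not be counts of molecules.

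The members and lists were chosen with earlier results of these data known. All 10 members, Srebf1 and, per list, up to 4 called genes with the smallest p (with none called, the most abundant) were named, and the 3 genes most like each of the 2 members with the smallest p; 1 of these is not reported here. Alternatives were upper-quartile factors, total counts, DESeq2 1.42.0, limma-voom (limma 3.58.1), no filter, a filter of 5 CPM in 3 libraries, Ctsd left out, a replicate block, each library left out and lookalike rows added, the last chosen after seeing the data.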

Additional observations from a re-analysis of the deposited data

How the results depend on the processing

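Etnk1 kept its call in all 15 alternatives, with log2 fold changes of 0.64 to 0.87. Leaving out 1 library at a time gave 1 to 3 of the 10 genes called higher and 0 lower. With lookalike rows added, 1 gene was called lower, Pisd, which reversed to -0.58. That sum is mostly pseudogene tags and cannot show the direction of Pisd itself. Chpt1, near 0, ranged with 1 library left out from -0.14 (without trSrebf1 replicate 1) to 0.021 (without trSrebf1 replicate 3), and over all alternatives its lowest value was -0.16, with upper-quartile factors. Pcyt2 ranged from 0.87 to 1.75 and Chka from 0.42 to 0.72, and both kept their calls under the alternatives that keep all 6 libraries. Ptdss2 was not tested with the filter of 5 CPM. Of 31 other named genes, 26 kept their call and direction in every alternative that tested them, and 225 of 240 counts over the lists stayed within 1.5 times. Those 225 include list counts that were 0 in every fit, and small counts that changed from 2 to 3. Over all genes, upper-quartile factors gave 1552 higher and 1649 lower and total counts 1565 and 1547, against 1755 and 1328. The ratio of Pcyt2 to Pcyt1a differed by 0.61 to 1.09 and that of Ptdss2 to Ptdss1 by 0.35 to 1.02 with 1 library left out. Chka to Chkb ranged from 0.022 (without control replicate 3) to 0.27, and Cept1 to Chpt1 from -0.57 to -0.12.

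The replicate numbers were tried as a block. Same-numbered libraries did not deviate together (correlations across genes of 0.0089, -0.10 and -0.04). Deviations were taken from means of 3 libraries and hold counting noise, so these values cannot exclude that the numbers pair the samples. With the replicate block 3 of the 10 genes were called higher and 0 lower, and over all genes 1646 and 1174. Among the named genes Ept1 was not called with it (adjusted p = 0.056). Depth limits the genes with few counts: for Ptdss2, with 10 to 32 counts per library, the 95% interval ran from -0.46 to 1.19.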
